A study of Homo sapiens with 6 samples.

Results

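The E2F and DP transcription factors were examined in the RIP-seq of WaGa cells by taking every row of the read count table whose gene name was *E2F1* to *E2F8*, *TFDP1* or *TFDP2*. These were 10 of the 60655 listed genes, each with 1 row. WaGa is an established Merkel cell carcinoma (MCC) line that carries Merkel cell polyomavirus (MCPyV). Its cells were wild-type and untreated in all libraries. RNA immunoprecipitation (RIP) sequences the RNA that an antibody pulls out of a lysate. The question was which transcripts are enriched with IGF2BP3, an RNA-binding protein of fetal tissues and tumors, over a control IgG. The data comprised 3 IGF2BP3 IP and 3 IgG IP libraries from this single line, numbered 1 to 3 in both groups. The labels call the replicates independent but do not say whether they came from separate cultures, so p-values measure the spread between these libraries.

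E2F proteins bind promoters of genes needed for DNA synthesis and cell division, mostly as dimers with a DP protein. E2F1, E2F2 and E2F3 activate these promoters and are held in check by the retinoblastoma protein RB1, whereas E2F4 and E2F5 repress them together with the related pocket proteins RBL1 and RBL2. E2F6 represses without a pocket protein, within a polycomb complex, and E2F7 and E2F8 repress as atypical E2Fs that need no DP partner. In virus-positive MCC, the MCPyV large T antigen binds RB1, which frees activating E2Fs. IGF2BP proteins stabilize or regulate the translation of bound mRNAs, and the related IGF2BP1 is known to stabilize *E2F1* mRNA in other tumor cells. For IGF2BP3 itself, the study's introduction cites earlier work that names *E2F3* among the oncogenic transcripts it regulates.

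The libraries held from 9758759 to 14886414 counts on genes, of which the 10 transcripts took between 0.103% and 0.118%. Within each group, replicate 1 was unlike the other two libraries. A chi-square statistic of the counts, divided by its degrees of freedom, was 18.2 to 21.9 for pairs of libraries that included replicate 1, but 2.20 (IgG IP) and 3.25 (IGF2BP3 IP) between replicates 2 and 3. All 12 MCC markers looked for, among them *ATOH1*, *KRT20* and *CHGA*, were detected in every library, with a summed level of 4535 to 4835 normalized CPM, the counts scaled to a common library size. The 13 markers of fibroblasts, blood cells, endothelium, melanocytes and keratinocytes summed to between 1.21 and 2.17 CPM, and 6 of them, including *PTPRC*, were at 0 in every library. No input RNA was analysed here. The amount of a transcript in the lysate and its recovery in an IP therefore cannot be told apart, nor can fewer expressing cells and less RNA per cell.

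The members differ in the length and base composition of their RNA. Lengths of the canonical transcripts (GRCh38, GENCODE version 44) ran from 1964 bases for *E2F5* to 9880 bases for *TFDP2*, of which 8088 bases are 3′ UTR. *E2F3* (chromosome 6, 20401879 to 20493714, plus strand) has 7 exons and a 3′ UTR of 3287 bases. *E2F1* (chromosome 20, 33675477 to 33686385, minus strand) also has 7 exons, in a transcript of 2690 bases with the highest GC content of the family, 61.6%. *E2F6* (chromosome 2, 11444375 to 11466177, minus strand) has 7 exons and a GC content of 44.3%. *TFDP2* lies on chromosome 3 from 141944428 to 142149544 on the minus strand, with 13 exons. IGF2BP proteins favor short CA-rich stretches, so the letters CATA, CATC and CATT were counted on the transcript strand. CATC can share its last letter with the first of the next word, and both were then counted. Their density ran from 8.53 per kb in *E2F4* to 11.8 per kb in *E2F6*, with a median of 9.80 per kb over the 10 members. Over 14479 tested transcripts the median was 10.8 per kb, and 99.6% of them held at least 1 match. The 169 RNAs enriched in the IGF2BP3 IP also had a median of 10.8 per kb. To show the RNA context, the window of 30 bases with the most matches (the first where several tie) is given for 4 members, with matches in capitals. They are the member with the largest change, the most abundant E2F, the member with the smallest p-value and the member with the most matches in a window. Windows were not searched in *E2F5*.
*E2F1*: tgccacCATAgtgtcaccaccacCATCATC
*E2F3*: tgcCATTtaagCATTcctgtggcaccCATC
*E2F6*: tagCATAtgtgacctatcaagaCATTCATA
*TFDP2*: tctacCATTcagctgcCATTCATAatCATC
The *E2F1* window lies in the coding part of exon 6 (chr20:33677161-33677190, minus strand) and the *E2F3* window in the 3′ UTR in exon 7 (chr6:20491254-20491283, plus strand). The *E2F6* window is coding sequence of exon 5 (chr2:11450095-11450124, minus strand), and so is that of *TFDP2* in exon 10 (chr3:141963859-141963888, minus strand). A match describes the sequence and is not a bound site.

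On the length-scaled level, *TFDP1* was the most abundant member in every library. Its level in TPM, a unit scaled by transcript length and library size, was 159 ± 29.2 (SD, n = 3) in the IgG IP and 176 ± 28.7 (SD, n = 3) in the IGF2BP3 IP, and its range over libraries lay above that of every other member. *E2F3* was the highest E2F, with 55.7 ± 14.9 TPM (SD, n = 3) in the IgG IP. *TFDP2*, *E2F5* and *E2F2* followed at 45.3, 45.3 and 38.2 TPM, and then *E2F6* (28.7 TPM), *E2F7* (22.9 TPM) and *E2F4* (19.3 TPM). From *E2F3* to *E2F4* the range of each member over the libraries overlapped that of its neighbor in this order. Within each single IgG IP library, however, *E2F5*, *E2F2*, *E2F6*, *E2F7* and *E2F4* kept this order. At the foot, *E2F8* had 13.3 ± 0.777 TPM (SD, n = 3) and *E2F1* 12.3 ± 4.15 TPM (SD, n = 3), with ranges that overlapped each other and lay, for *E2F8*, below that of *E2F4*. In the IGF2BP3 IP the order was *TFDP1*, *E2F3*, *E2F5*, *E2F2*, *TFDP2*, *E2F7*, *E2F6*, *E2F4*, *E2F1* and *E2F8*. There, the neighbors with separate ranges were *TFDP1* and *E2F3*, and *TFDP2* and *E2F7*. The activators *E2F1*, *E2F2* and *E2F3* together made up 41.8% to 46.8% of the summed E2F TPM in the IgG IP and 44.7% to 45.7% in the IGF2BP3 IP. *E2F4* and *E2F5* made up 26.2% to 28.1% and 24.0% to 29.5%, and the atypical *E2F7* and *E2F8* 13.3% to 18.0% and 15% to 19.2%. The share of *E2F6* was 11.4% to 13.9% and 10.1% to 11.8%. For all 4 classes the ranges of the groups overlapped.

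**Figure D1:**
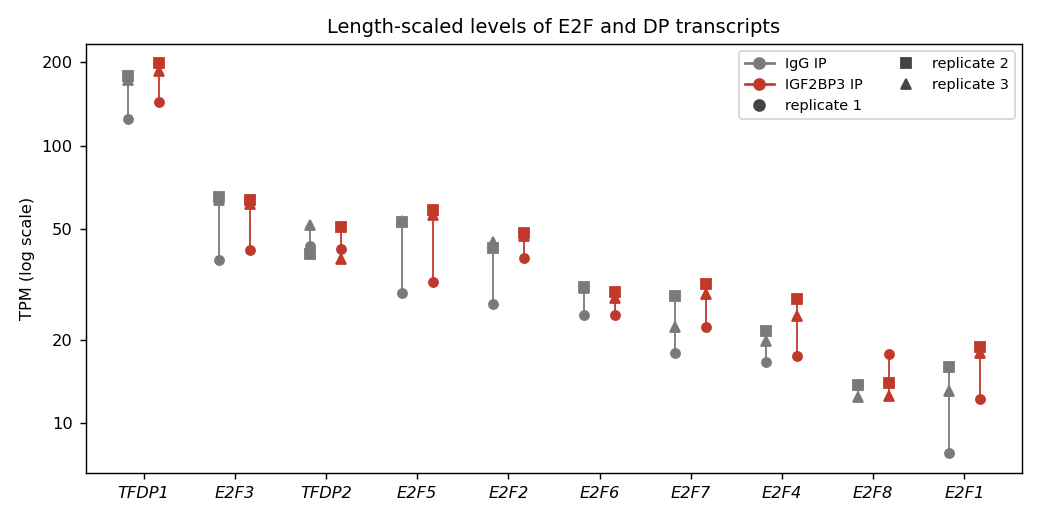
TPM on a log axis for each member in each library, grey for the IgG IP and red for the IGF2BP3 IP, with a symbol for each replicate number and a line over the range of each group. *TFDP1*, from 125 to 198 TPM, lies above all other members, while most other neighbors overlap.

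Between the IGF2BP3 IP and the IgG IP, none of the E2F or DP transcripts was enriched and none was lower. All 10 passed the expression filter, 0 of 10 reached a fold change of at least 1.5 with an adjusted p-value under 0.05 in either direction, and 0 of 10 had an unadjusted p-value under 0.05 (quasi-likelihood test of edgeR, p-values adjusted by Benjamini-Hochberg over 14507 RNAs). At the thresholds of the call 1.16% of all tested RNAs were enriched and 0% were lower. At an unadjusted p under 0.05 in the same test, 1410 of the 14507 RNAs were higher and 449 lower. DESeq2, the test of the study's methods, also called 0 of the 10. The log2 fold changes of the members ran from -0.18 for *E2F6* to 0.26 for *E2F1*, with a median of 0.07, against a median of -0.01 over all tested RNAs. Their adjusted p-values ran from 0.44 to 0.96 in this edgeR fit.

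Among the activators, *E2F1* had the largest log2 fold change. In the order of the replicate numbers, its normalized CPM were 24.7, 33.7 and 31.1 with IgG against 31.9, 38.1 and 37.7 with IGF2BP3. The groups overlapped, since IGF2BP3 IP replicate 1 lay below IgG IP replicate 2. This was a log2 fold change of 0.26 (SE 0.14, 95% CI -0.05 to 0.57, adjusted p = 0.48 in edgeR's quasi-likelihood test), or 1.20-fold, where SE is the standard error and CI the confidence interval. *E2F2* stood at 169, 182 and 190 CPM in the IgG IP and at 207, 194 and 189 CPM in the IGF2BP3 IP. Again the groups overlapped, by IGF2BP3 IP replicate 3, and the log2 fold change was 0.12 (SE 0.08). *E2F3*, the most abundant activator, had 230, 267 and 262 CPM in the IgG IP and 211, 238 and 238 CPM in the IGF2BP3 IP. Each IGF2BP3 IP library was below the IgG IP library of its own number, although the groups overlapped. The log2 fold change of *E2F3* was -0.14 (SE 0.09, 95% CI -0.35 to 0.06, adjusted p = 0.56, same edgeR test), on 2119 to 3984 counts per library. With TPM values its sign turned, to 0.02, but with log2(TPM + 1) the median of all RNAs was 0.11, against -0.01 with counts.

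The repressors of the pocket protein group moved as little. *E2F4* had 27.7, 29.8 and 30.1 CPM in the IgG IP and 28.5, 34.7 and 32.3 CPM in the IGF2BP3 IP. Only IGF2BP3 IP replicate 1 fell within the range of the IgG IP, and the log2 fold change was 0.12 (SE 0.11). *E2F5* had 63.2, 79.0 and 80.6 CPM in the IgG IP against 60.1, 78.1 and 72.6 CPM in the IGF2BP3 IP. Replicate 1 was the low library of both groups, which overlapped widely, and the log2 fold change was -0.08 (SE 0.13). Of the exonic bases of *E2F5*, 16.6% overlap exons of *RBIS* on the other strand. *RBIS*, a ribosome biogenesis factor, held 1492 to 2606 counts per library against 583 to 1179 on *E2F5*, and its own log2 fold change was -0.31 (adjusted p = 0.23, same edgeR test). Whether the counting used strand is not given in the sources used here, so reads of *E2F5* and *RBIS* cannot be told apart where they overlap.

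*E2F6* had the smallest p-value of the family. Its CPM were 53.8, 49.8 and 52.4 with IgG, against 45.4, 46.5 and 45.9 with IGF2BP3. The IGF2BP3 libraries were thus all lower than the IgG libraries, which held for 8.69% of the RNAs tested. Its log2 fold change was -0.18 (SE 0.09, 95% CI -0.37 to 0.02) with an adjusted p of 0.44 in edgeR's quasi-likelihood test. The 3 tested RNAs whose log2 CPM followed *E2F6* most closely over the 6 libraries were *PSMD10*, *CUL5* and *AL132780.4* (Pearson r of 0.99, 0.99 and 0.98), chosen as the highest of 14487.

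For the atypical E2Fs, *E2F7* gave 83.0, 84.8 and 77.8 CPM in the IgG IP and 89.8, 88.4 and 83.0 CPM in the IGF2BP3 IP. The groups overlapped by IGF2BP3 IP replicate 3, and the log2 fold change was 0.09 (SE 0.08). *E2F8* had 48.2, 35.9 and 35.2 CPM in the IgG IP and 48.0, 35.0 and 32.8 CPM in the IGF2BP3 IP. Replicate 1 was the highest library of both groups, and the log2 fold change of *E2F8* was -0.04 (SE 0.18), the largest standard error of the family.

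For both DP partners all 3 IGF2BP3 libraries were higher than all 3 IgG libraries, which held for 12% of the RNAs tested. *TFDP1* had 321, 321 and 323 CPM in the IgG IP and 328, 340 and 339 CPM in the IGF2BP3 IP. The difference was small beside its level, with a log2 fold change of 0.06 (SE 0.07), or 1.04-fold. Its processed pseudogene *TFDP1P2* held 15 to 34 counts per library, against 2963 to 4792 on *TFDP1*. *TFDP2* had 65.0, 62.9 and 60.2 CPM in the IgG IP and 71.4, 75.5 and 65.8 CPM in the IGF2BP3 IP. Its log2 fold change was 0.18 (SE 0.09, adjusted p = 0.46, same edgeR test) on the counts but -0.04 on log2(TPM + 1). The deposited counts and FPKM of *TFDP2* did not move in step. The highest over the lowest quotient of count by FPKM and library total was 1.68 between libraries for *TFDP2*, against 1.04 to 1.28 for the other members. Whether this lies in the lengths used or in the reads assigned was not tested.

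**Figure D2:**
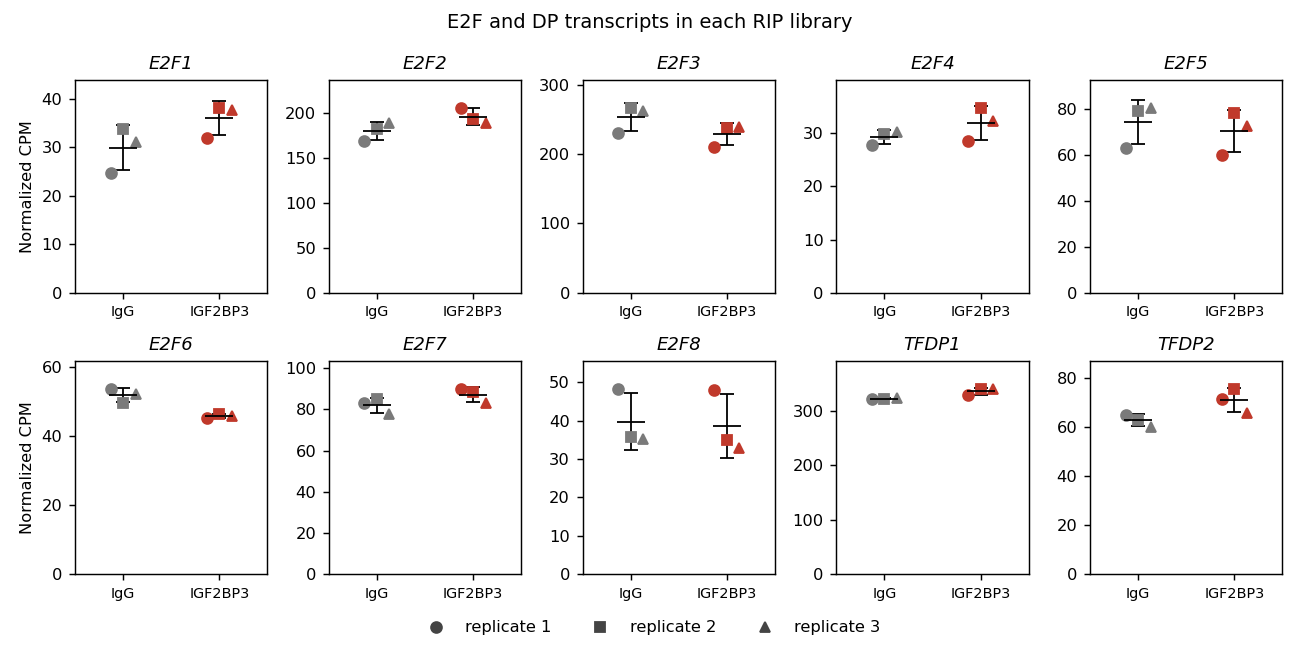
Normalized CPM of each member in each library on axes from 0, with the mean and SD of each group (n = 3) in black. *E2F6* is the member whose IGF2BP3 IP libraries all lie below the IgG IP, while *TFDP1* and *TFDP2* lie above it and the other 7 overlap.

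The confidence intervals give the size of change that the counts allow for each member, relative to the library scaling and the spread between these libraries. In the fit with condition as the only term, the 95% confidence intervals of all 10 members lay within 1.5-fold on both sides, as did those of 53.7% of all tested RNAs. The upper ends ran from 0.02 for *E2F6* to 0.57 for *E2F1*, that is 1.01-fold to 1.49-fold, and the lower ends from -0.43 for *E2F8* to -0.02 for *TFDP2*. *E2F1* came closest to the limit of 0.58 on the log2 scale. Its interval reached past it in 5 of the 6 fits without a library, up to 0.72 without IgG IP replicate 2, and to 0.65 with library totals as the only scaling. The remaining members stayed within 1.5-fold in each of these fits. On TPM values the intervals were wider, and 3 of 10 members lay within 1.5-fold with log2(TPM + 1). For scale, *HMGA1*, a chromatin protein mRNA with the smallest p-value in these data, had an interval of 1.27 to 1.81, above those of all 10 members.

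Libraries of the same number deviated together from their group means, so the differences were also read within pairs. Across genes, the deviations correlated at 0.32 and 0.26 within numbers 2 and 3, but also at 0.31 and 0.30 when crossed. Pairs 2 and 3 therefore rest on the labels. Of the 10 members, 9 moved in the same direction in 3 of 3 pairs, as did 48.5% of all tested RNAs. Which members these are depends on the labels of pairs 2 and 3. With numbers 2 and 3 crossed, *E2F2* would be higher in each pair and *E2F7* would not. *E2F7* had 84.8 CPM in IgG IP replicate 2 and 83.0 CPM in IGF2BP3 IP replicate 3. *E2F1*, *E2F4*, *E2F7*, *TFDP1* and *TFDP2* were higher in 3 of 3 pairs (5 members, against 25.1% of all tested RNAs), and *E2F3*, *E2F5*, *E2F6* and *E2F8* were lower in 3 of 3 (4 members, against 23.5%). The log2 ratios of *E2F1* were 0.37, 0.18 and 0.28 in pairs 1 to 3, and those of *E2F3* were -0.13, -0.17 and -0.13. *E2F6* gave -0.24, -0.10 and -0.19, and *TFDP2* 0.13, 0.26 and 0.13. The ratios of *E2F5* were smaller in part, at -0.07, -0.02 and -0.15, as were those of *E2F8*, at -0.01, -0.04 and -0.10. When the replicate number entered the edgeR fit as a block, *E2F1* had an adjusted p of 0.033 at a log2 fold change of 0.27 (95% CI 0.09 to 0.44), still under the 1.5-fold minimum. The same block in DESeq2 gave *E2F1* an adjusted p of 0.24 (log2 fold change 0.26, 95% CI -0.01 to 0.53), and the GC correction with the block in edgeR an adjusted p of 0.71 at 0.06. In the blocked edgeR fit without GC correction, 10.9% of all tested RNAs were higher at an adjusted p under 0.05 without a fold change minimum. The other 9 members had adjusted p-values of 0.078 (*E2F3*) to 0.76 (*E2F8*) in the same blocked edgeR fit, and 0 of 10 were called against 3.56% of all tested RNAs enriched.

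**Figure D3:**
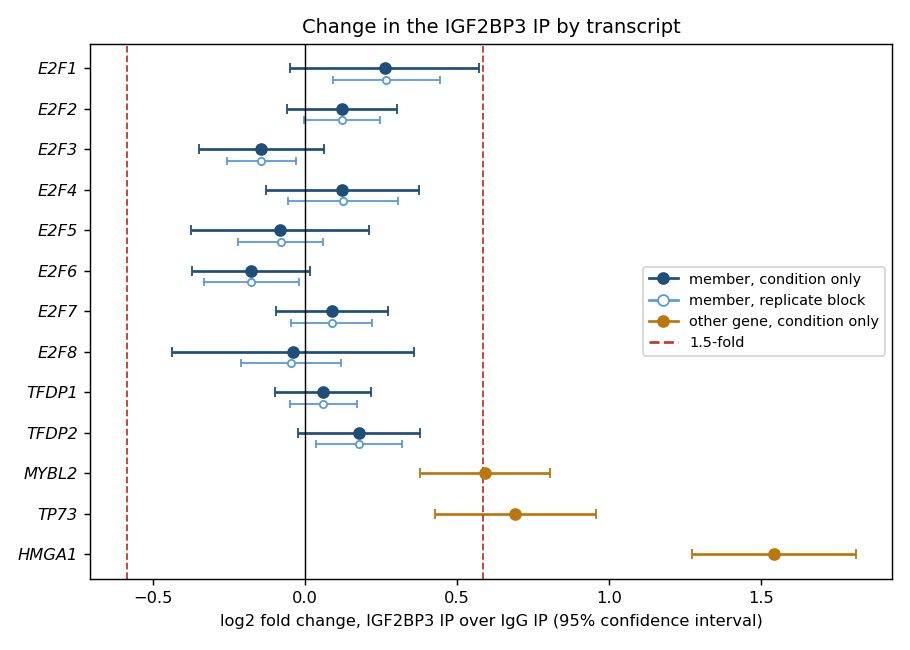
Log2 fold change of IGF2BP3 IP over IgG IP with its 95% CI for the 10 members, with condition as the only term (filled) and with the replicate block (open), and for *MYBL2*, *TP73* and *HMGA1*. Dashed lines mark 1.5-fold. The members lie between -0.18 and 0.26, and the interval of *E2F1*, up to 0.57, ends just inside the line.

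Transcript GC content moved with the differences between members. The 3 members with the highest GC content, *E2F1* (61.6%), *E2F4* (58.1%) and *E2F2* (57.4%), had log2 fold changes of 0.26, 0.12 and 0.12, while the other 7, at 43.1% to 46.9%, ran from -0.18 to 0.18. Across the 10 members GC content and log2 fold change had a Pearson r of 0.66 and a Spearman rho of 0.65. Over 14479 tested RNAs of the same libraries, r was 0.36 and rho 0.41 (genes are not independent replicates). After a per-library correction for GC content, the log2 fold change of *E2F1* was 0.06, and those of *E2F2* and *E2F4* turned to -0.04 and -0.05. *E2F6* stayed at -0.16 and *TFDP2* at 0.16. A correction for transcript length instead put *TFDP2*, the longest member, at 0.03 (95% CI -0.19 to 0.26). The GC correction was fitted on these same libraries and takes out any difference that follows GC content, whatever its source. The part of GC content in the differences was not tested beyond this correction.

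**Figure D4:**
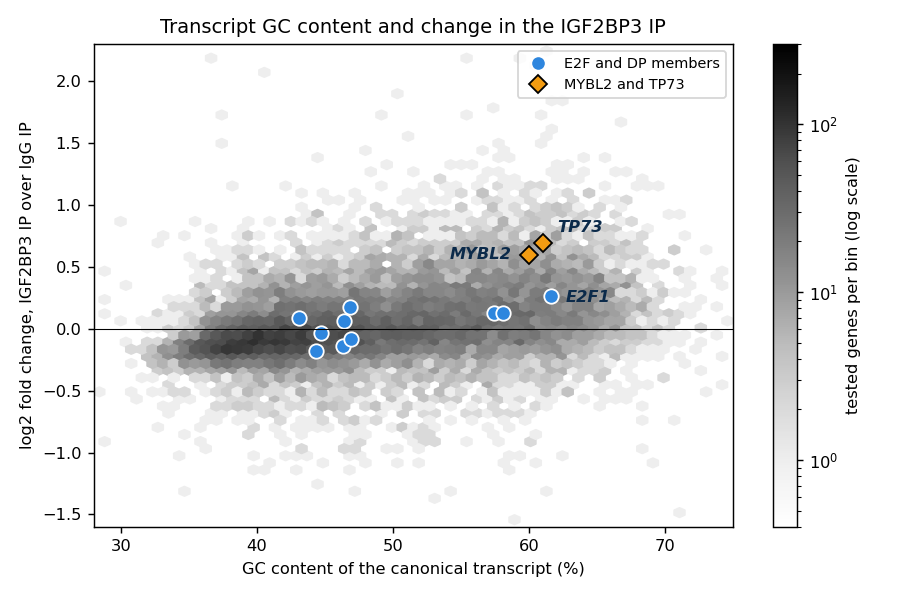
Log2 fold change against the GC content (%) of the canonical transcript, with all tested genes as grey bins, the 10 members as blue points and *MYBL2* and *TP73* as orange diamonds. *E2F1*, at 61.6%, *MYBL2* and *TP73* lie on the GC-rich side, where the bins rise.

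Replicate 1 differed from replicates 2 and 3 more than the IPs differed from each other for several members. *E2F8* was 1.36-fold higher in replicate 1 than in the mean of replicates 2 and 3 in the IgG IP and 1.42-fold higher in the IGF2BP3 IP. *E2F5* was at 0.792 and 0.798 of that mean, and *E2F1* at 0.763 and 0.841. *TFDP1*, by contrast, was at 0.997 and 0.966. Between replicates 2 and 3 the log2 ratios of *E2F8* were 0.03 and 0.09, and those of *E2F5* were -0.03 and 0.11. With replicate as a block the standard error of *E2F8* fell to 0.08 and that of *E2F5* to 0.07. The cause of the difference in replicate 1 was not tested.

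**Figure D5:**
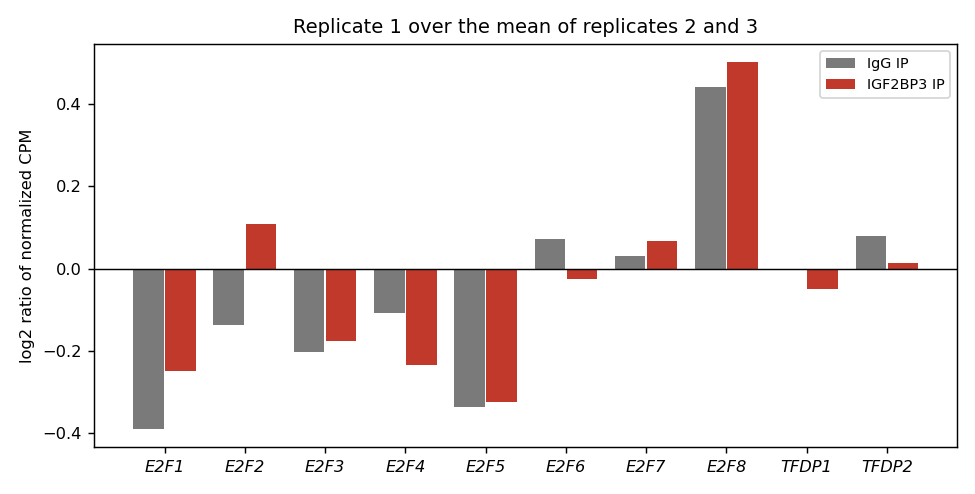
Log2 ratio of normalized CPM in replicate 1 over the mean of replicates 2 and 3 for each member, in the IgG IP (grey) and the IGF2BP3 IP (red), 1 value per group without an error. *E2F8* is higher in replicate 1 of both groups (0.44 and 0.50), and *E2F5* and *E2F1* are lower in both.

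Of the genes that work with or under the E2Fs, 2 were enriched in the IGF2BP3 IP. The 6 lists held 57 genes, 55 of which were tested, and 2 of these 55 were enriched and 0 lower, against the 1.16% and 0% of all tested RNAs. *MYBL2*, an activating partner of the MuvB complex whose promoter is a classical E2F target, had 34.4, 38.9 and 35.0 CPM in the IgG IP and 53.1, 54.2 and 56.4 CPM in the IGF2BP3 IP. All IGF2BP3 IP libraries lay above all IgG IP libraries, and the log2 fold change was 0.59 (SE 0.09, adjusted p = 0.024, same edgeR test), next to the minimum of 0.58. *TP73*, a p53 relative whose promoter responds to E2F1, had 26.3, 32.4 and 33.6 CPM in the IgG IP and 47.0, 53.2 and 49.3 CPM in the IGF2BP3 IP. Here too the groups were separate, and the log2 fold change was 0.69 (SE 0.12, adjusted p = 0.031, same edgeR test). *TP73-AS1* overlaps 9.35% of its exonic bases on the other strand and had a log2 fold change of -0.12. Both calls held with the replicate block in edgeR (adjusted p = 1.0e-06 for *TP73* and 5.6e-06 for *MYBL2*) but not in every other fit. In DESeq2, *MYBL2* was at 0.5815 without and 0.5844 with the block, under the minimum of 0.585 and so not called. It was also under the minimum with RLE scaling factors (0.5804), no filter (0.5793) and the length correction (0.5415). Its adjusted p stayed under 0.05 in each of these fits, in which *TP73* kept its call. *TP73* lost its call when replicate 2 or 3 of the IgG IP was left out (adjusted p = 0.13 and 0.11) and when replicate 2 or 3 of the IGF2BP3 IP was (0.19 and 0.17), and *MYBL2* did so too, with adjusted p-values in the same order of 0.089, 0.13, 0.16 and 0.17 in edgeR's quasi-likelihood test. In these 4 fits, each on 5 libraries, the log2 fold changes stayed at 0.64 to 0.76 for *TP73* and 0.55 to 0.65 for *MYBL2*. Few RNAs of any kind were enriched in these fits, in the same order 19, 7, 0 and 23, against 169 with all libraries. Without IgG IP replicate 1, *MYBL2* was at 0.56, under the minimum. With the GC correction both calls were lost, at log2 fold changes of 0.40 and 0.49 for *MYBL2* and *TP73*, whose GC contents both exceeded 56.0%, the upper quartile of all tested RNAs. With the GC correction and the block, both were higher at the same size (adjusted p = 0.00013 for *TP73* and 0.00064 for *MYBL2*, edgeR) but under the fold change minimum.

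No other gene of the lists was called. The 3 pocket proteins had a median log2 fold change of -0.11. *RB1* had 385 ± 7.20 CPM (SD, n = 3) in the IGF2BP3 IP and 415 ± 9.35 CPM (SD, n = 3) in the IgG IP, at a log2 fold change of -0.11, and *RBL1* was at -0.17. In the MuvB list, 5 of 6 genes were not called, among them *LIN37* at -0.36 on 13 to 36 counts per library. Among the G1 cyclins, kinases and inhibitors, 10 of 12 were tested, with a median of -0.01. *CCND1* and *CCND2*, of the cyclins D that start the inactivation of RB1, held at most 4 and 5 counts per library and were not tested. *CCND3*, also a cyclin D, held 294 to 414 counts and had a log2 fold change of 0.12. *CCNE2*, cyclin E2 with 985 ± 117 CPM (SD, n = 3) in the IgG IP, had a log2 fold change of -0.21, and *CDK6* was at 0.22 on 14 to 33 counts. All 22 target genes of the G1/S transition were tested, 11 of them above 0, with a median of -0.01. The largest were *CDT1* (0.37) and *MCM3* (0.31), both of DNA replication licensing, with adjusted p-values of 0.59 and 0.45 in the same edgeR test. The 8 partners of E2F6 in its polycomb complex had a median of -0.08, with *L3MBTL2* at 0.31 (adjusted p = 0.37) and *CBX3* at -0.24 (adjusted p = 0.25, same edgeR test). Of the 6 apoptosis genes, 5 were not called. With the replicate block in edgeR, adjusted p-values were 0.0012 for *MCM3*, 0.010 for *CDT1*, 0.0033 for *CBX3* and 0.0088 for *CCNE2*. They were 0.053 for *RBL1*, 0.058 for *L3MBTL2*, 0.18 for *RB1*, 0.45 for *LIN37* and 0.68 for *CDK6*. None of these genes was called there, and 10.9% of all tested RNAs were higher at an adjusted p under 0.05 in that fit.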

How the data were processed

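RIP-seq libraries from WaGa cells, 3 IGF2BP3 IP and 3 IgG IP, were grouped by their labels. Per the study's methods, read pairs were mapped to GRCh38 using STAR 2.7.9a, and RSEM with GENCODE version 37 gave transcript levels. They deposited raw read counts per gene without normalization. The program that made these counts is not given in the sources used here. They also deposited TPM and FPKM values from RSEM, which were used for levels and as alternatives. The TPM and FPKM values scale by a transcript length estimated in each library.

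filterByExpr removed low counts and TMM set the scaling. The test was edgeR's quasi-likelihood test (edgeR 4.0.16, R 4.3.3) on a design holding condition alone. Normalized CPM use the TMM library sizes. Thresholds were a fold change of at least 1.5 and an adjusted p under 0.05. Standard errors were derived from the log2 fold change and its F statistic. Alternatives were DESeq2 1.42.0, limma 3.58.1, other scalings and filters, TPM values, replicate terms, loess corrections (span 0.5) for GC content and length, and leaving out each library. Same-numbered libraries deviated together from their group means (correlations across genes of 0.60, 0.32 and 0.26), so a replicate block was fitted. Replicates 2 and 3 correlated alike when crossed (0.31 and 0.30). GC content and length came from GENCODE version 44, in which 60481 of 60655 gene identifiers were found. The fits were tested on simulated data.

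The members and lists were chosen with earlier results of these data known. Named were all members, *IGF2BP3* and *HMGA1*, in each list the called genes and the 2 largest absolute log2 fold changes, genes that overlap or resemble a member, and the 3 genes most like the member with the smallest p-value. *IGF2BP3* itself was at -0.04. *CCND1* and *CCND2* were named because they were not tested, and *CCND3* was named beside them. A gene that this rule would name is not reported here.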

Additional observations from a re-analysis of the deposited data

How the results depend on the processing

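None of the 10 members was called enriched or lower under any of the 22 alternatives, and *E2F1*, *E2F6* and *TFDP1* kept their direction in the 21 that give a fold change of their own. The number of members with an interval within 1.5-fold, a count added after seeing the data, fell to 3 and 2 with limma-trend on log2(TPM + 1) and log2(TPM + 0.1), and was 9 to 10 with a library left out. With TPM values the median of all RNAs was 0.11 and 0.13, against -0.01 with counts. *E2F3* was at 0.016 and 0.017, *E2F5* at 0.11 and 0.12, *E2F8* at 0.13 and 0.14 and *TFDP2* at -0.041 and -0.042, each with a turned sign. *E2F8* also turned with library totals (0.0064). With a library left out *E2F8* ran from -0.22 to 0.12, above 0 without replicate 1 of the IgG IP or without replicate 2 or 3 of the IGF2BP3 IP, and *E2F5* from -0.18 to 0.018, above 0 without replicate 1 of the IGF2BP3 IP. The GC correction turned *E2F2* and *E2F4* to -0.039 and -0.047, and with the replicate block to -0.041 and -0.044. The length correction put *E2F7* at -0.0033.

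Against 169 enriched and 0 lower RNAs, no filter gave 359 and 1, DESeq2 281 enriched, DESeq2 with the replicate block 321 and 1, the replicate block 517 and 15, replicate 1 as a term 537 and 23, the GC correction 82 enriched, and with the replicate block 269 and 37. Both TPM fits gave 0 enriched, with 476 and 617 at least 1.5-fold higher at an unadjusted p under 0.05. Leaving out a library gave 0 to 244 enriched. Against 2 enriched genes of the lists, RLE factors, no filter, DESeq2 without and with the replicate block and the length correction gave 1, the GC correction without and with the block and both TPM fits 0, and a library left out 0 to 2. The replicate block changed no call of the members or lists. The adjusted p of *E2F1* was 0.033 with it and 0.024 with replicate 1 as a term in edgeR, and 0.24 with the block in DESeq2. In the IGF2BP3 IP, 8 of 10 members held the same place by FPKM as by TPM. The causes were not tested.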

Other observations

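Among the 12 MCC markers, 0 were called in edgeR's quasi-likelihood test, and their median log2 fold change was -0.05. *NCAM1*, the neural cell adhesion molecule CD56 and chosen here after its values were seen, had 71.7 ± 10.7 CPM (SD, n = 3) with IgG and 113 ± 14.7 CPM (SD, n = 3) with IGF2BP3. The log2 fold change of 0.66 had an adjusted p of 0.055 in edgeR's quasi-likelihood test and of 3.6e-08 with the replicate block, with the IGF2BP3 IP higher in 3 of 3 libraries.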
